A study of Mus with 9 samples.

Results

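The small leucine-rich proteoglycans examined here are 9 genes: Dcn (decorin), Bgn (biglycan), Aspn (asporin), Lum (lumican), Fmod (fibromodulin), Prelp, Omd (osteomodulin), Ogn (osteoglycin) and Podn (podocan). They were taken by gene name from the 55421 genes of the count table, each name occurred once, and all 9 were among the 19326 genes that passed the filter on low counts. The study sequenced messenger RNA from whole tissue in 9 mouse libraries, labelled atria in one field and left atrium in the series text. Each of the 3 groups had 3 libraries. Sham 1 to 3 came from sham-operated mice given vehicle, MI 2, MI 3 and MI 4 (numbered as titled) from mice with myocardial infarction given vehicle, and MI_ART 1 to 3 from infarcted mice given artesunate, an artemisinin derivative used against malaria. All animals were wild-type male C57BL/6J mice aged 8 to 10 weeks, and the infarct came from a lasting tie around the left anterior descending artery, a coronary vessel that supplies the ventricle. The labels give artesunate intraperitoneally at 25 mg/kg a day for 7 days from surgery in one place, and at 10 mg/kg every other day from 2 days before surgery to day 7 in another. The day of harvest was not given in the sources used here. Whether each library came from its own animal is not said, and p-values therefore cover only the spread among these 9 samples, which may be technical.

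Small leucine-rich proteoglycans are secreted proteins whose leucine-rich repeats form a curved core that binds collagen fibrils and sets their diameter and spacing. Several carry glycosaminoglycan chains: decorin and biglycan bear chondroitin or dermatan sulfate, and lumican and fibromodulin keratan sulfate. In the heart they are made mainly by fibroblasts and valve interstitial cells, and they also bind growth factors such as TGF-beta. Decorin, biglycan and asporin form class I of the family, lumican, fibromodulin, PRELP and osteomodulin class II, osteoglycin belongs to class III and podocan to class V.

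Total counts were 68046341 to 83685313 per library. Levels are given as CPM, the read count scaled to a common library size after TMM normalisation (trimmed mean of M values), on which a floor of 3 counts in a library is 0.0322 to 0.0592 CPM. Of the reads, mitochondrial genes with their nuclear copies took 45.2% to 52.2% in Sham, 16.0% to 25.1% in MI and 28.2% to 30.9% in MI_ART, so that fold changes against Sham depend on the scaling. With plain total counts the median gene stood at a log2 fold change of 0.88 in MI versus Sham and 0.75 in MI_ART versus Sham, against 0.04 and 0.01 with TMM. Ventricular muscle mRNA was present in all libraries: Myl2, the ventricular light chain, was at 455 to 3786 CPM. Myl7, the atrial light chain, was nearly absent from MI_ART 3, at 1.96 CPM, and was at 167 to 989 CPM in the other libraries. The atrial markers Myl4 and Sln were also low in MI_ART 3, at 6.21 and 0.74 CPM, while Nppa was at 1293 CPM. Bmp10, another atrial marker, had 3902 counts in MI 4 and 0 to 16 in the other libraries. MI 4 stood apart within its group, since the chi-square per gene was 538 against MI 2 and 432 against MI 3, and 63.6 to 122 for the other pairs of one group. Which chamber a difference came from was not tested. In bulk tissue, fewer cells of a type and less RNA per cell cannot be told apart.

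After infarction the family split. Bgn, Aspn and Lum were higher in MI than in Sham, Omd, Ogn and Dcn were lower, and Fmod, Prelp and Podn did not pass the test. The 3 higher and 3 lower of 9 stand beside 18.8% of all 19326 tested genes called higher and 14.3% called lower (33.1% in either direction). A gene was called at an adjusted p under 0.05 in edgeR's quasi-likelihood test, with the adjustment over all tested genes. The libraries of both groups did not overlap for 2 higher and 3 lower members, beside 25.7% and 23.2% of all tested genes (48.9% in all). The median log2 fold change of the 9 was -0.44 with TMM, beside 0.04 for all tested genes, and 0.40 with total counts, beside 0.88. With total counts 3 members were called higher and 1 lower, beside 49.3% and 3.33% of all tested genes. Relative to the median gene the members' values hardly moved between these scalings, as for Dcn at -0.61 with TMM and -0.60 with total counts and for Bgn at 2.01 with both. A change of scaling shifts all genes by nearly the same amount, so this follows from the subtraction. It does not show which scaling is right.

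**Figure D1:**
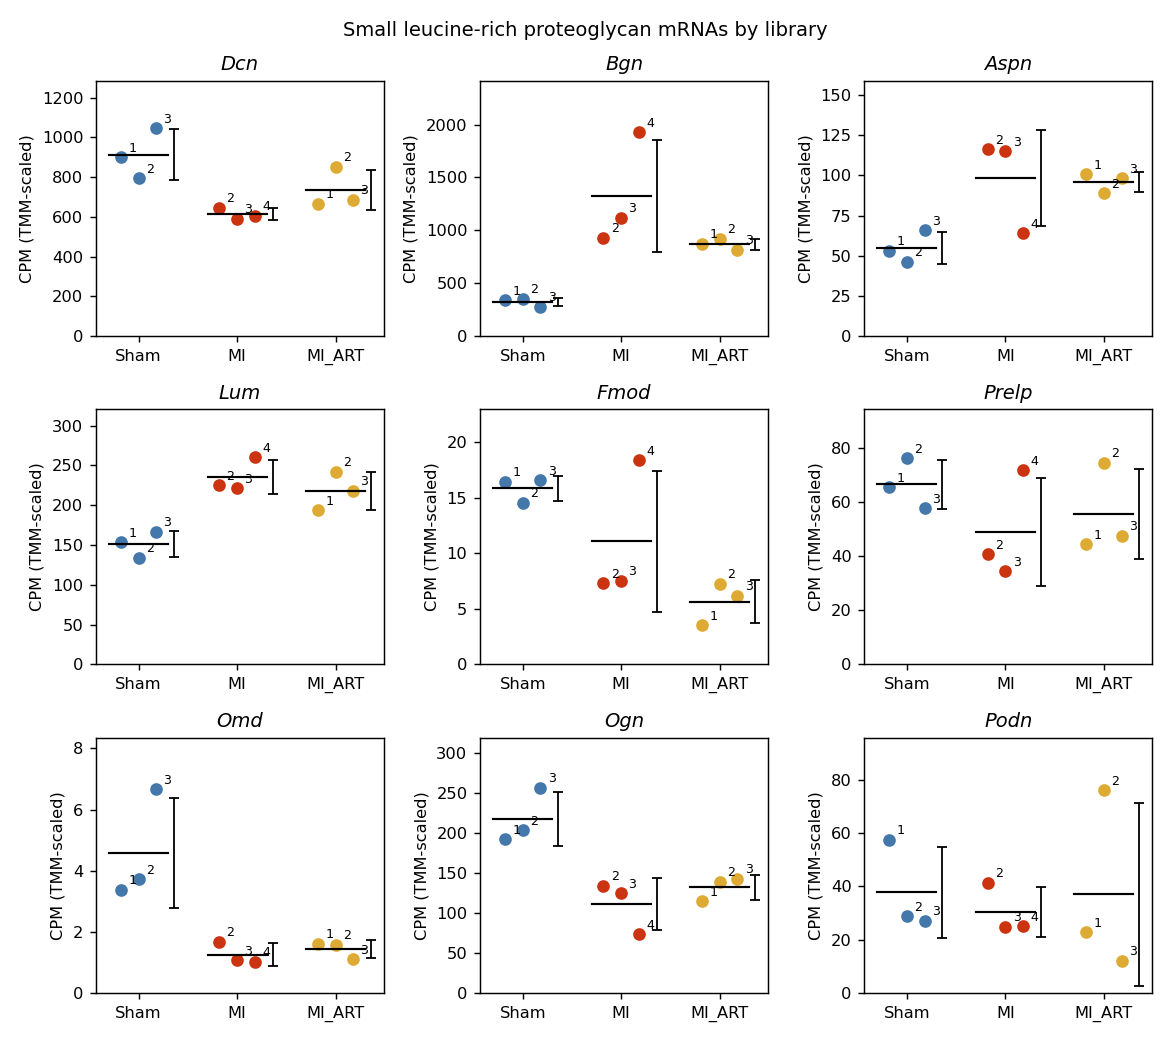
Level of each of the 9 members in every library, in TMM-scaled CPM on linear axes from 0. Points are libraries with their number, horizontal lines are group means and bars are the SD of 3 libraries. Bgn in MI and MI_ART lies above all Sham libraries, Omd and Ogn lie below them, and in MI the library MI 4 stands apart for Bgn, Aspn, Fmod, Prelp and Ogn.

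Bgn, the class I proteoglycan that also acts as a danger signal through Toll-like receptors once released from matrix, was higher after infarction. It was at 337, 351 and 276 CPM in Sham 1 to 3, at 931, 1120 and 1928 CPM in MI 2, MI 3 and MI 4, and at 872, 920 and 816 CPM in MI_ART 1 to 3. Every infarcted library was above every Sham library, and MI 4 was the highest of all. MI exceeded Sham 4.13-fold (log2 2.04, SE 0.27, adjusted p = 0.000452), from 322 ± 39.7 to 1327 ± 530 CPM (SD, n = 3 each). Without MI 4 the log2 fold change was 1.68 (adjusted p = 0.000161), and with total counts it was 2.89.

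Dcn, which binds collagen and sequesters TGF-beta, moved the other way with TMM. Its level was 901, 794 and 1047 CPM in Sham 1 to 3, 647, 591 and 606 CPM in MI 2, MI 3 and MI 4, and 667, 853 and 686 CPM in MI_ART 1 to 3. The MI libraries lay close together, below all Sham libraries. With TMM Dcn fell 1.49-fold in MI (log2 -0.57, SE 0.17, adjusted p = 0.0274), whereas with total counts its log2 fold change was 0.28 (adjusted p = 0.139). With library sizes outside the mitochondrial genome, an alternative chosen after the data were seen, it was -0.33 (adjusted p = 0.149). Leaving out Sham 1, Sham 3 or MI 3 also ended the call (adjusted p of 0.0292 to 0.0983 when any single library was dropped), as did a fit with no filter on low counts (adjusted p = 0.0546) and a fit of the 2 groups alone (adjusted p = 0.0710).

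Aspn, a class I member with an aspartate-rich end that lacks a glycosaminoglycan chain, was at 53.0, 46.2 and 65.8 CPM in Sham 1 to 3. In MI 2, MI 3 and MI 4 it was at 116, 115 and 64.2 CPM, and in MI_ART 1 to 3 at 101, 88.8 and 98.2 CPM. MI 2 and MI 3 lay above every Sham library, and MI 4 fell within their range. Aspn rose 1.79-fold in MI (log2 0.84, SE 0.24, adjusted p = 0.0230), and 1.075 on the log2 scale without MI 4 (adjusted p = 0.000976). The call was lost without Sham 1, Sham 2, MI 2 or MI 3 (adjusted p up to 0.0898).

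Lum, which spaces collagen fibrils in cornea and tendon, was at 154, 134 and 167 CPM in Sham 1 to 3, at 225, 221 and 261 CPM in MI 2, MI 3 and MI 4, and at 194, 242 and 218 CPM in MI_ART 1 to 3. No infarcted library reached down to the Sham range. Lum rose 1.56-fold in MI (log2 0.64, SE 0.16, adjusted p = 0.0135), and 1.495 on the log2 scale with total counts. The call was lost without Sham 2 (adjusted p = 0.0589).

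Fmod, which competes with lumican for collagen binding sites, was at 16.4, 14.6 and 16.6 CPM in Sham 1 to 3. In MI 2, MI 3 and MI 4 it was at 7.31, 7.55 and 18.4 CPM. MI 2 and MI 3 were below every Sham library, and MI 4 was above them all. Fmod did not pass in MI versus Sham (log2 -0.52, SE 0.38, adjusted p = 0.329, and 0.35 with total counts), but without MI 4 it was lower (log2 -1.09, adjusted p = 0.0171). Prelp, which anchors basement membranes to the collagen below them, was at 65.5, 76.1 and 57.8 CPM in Sham 1 to 3 and at 40.6, 34.5 and 71.7 CPM in MI 2, MI 3 and MI 4. Like Fmod it was below Sham in MI 2 and MI 3 and inside the Sham range in MI 4. Prelp did not pass with all libraries (log2 -0.44, SE 0.30, adjusted p = 0.286, and 0.40 with total counts), and was lower without MI 4 (log2 -0.82, adjusted p = 0.0276). Without MI 4, and likewise without MI 4 and MI_ART 3 together, 3 members were higher and 5 lower. All tested genes called also varied, from 4805 to 10171 over the alternatives run. These counts are therefore not read as a trait of the family.

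Markers of several other cell types were high in the same infarcted libraries as Prelp. For a list of 10 markers of tendon, cartilage, valve and late scar fibroblasts, the summed level was 68.8 to 89.8 CPM in Sham, 37.9 and 37.3 CPM in MI 2 and MI 3, 94.4 CPM in MI 4 and 38.9, 76.8 and 49.0 CPM in MI_ART 1 to 3. MI 4 and MI_ART 2 were the high infarcted libraries for the list and for Prelp. They were also high for 4 adipocyte markers, whose sum was 124 CPM in MI 4, 68.5 CPM in MI_ART 2, 1.76 to 6.87 CPM in the other infarcted libraries and 21.1 to 59.1 CPM in Sham. The epicardial and mesothelial sum was 231 CPM in MI 4 and 130 CPM in MI_ART 2, the highest of their groups. Atrial Myl7 was likewise highest there, at 989 and 803 CPM, as was the smooth muscle gene Myh11, at 99.3 and 158 CPM. In Sham, however, Myl7 was lowest in Sham 2 (167 CPM), where Prelp was highest. The sum of the 10 markers (68.8 CPM) and the epicardial and mesothelial sum (63.2 CPM) were also lowest of Sham there. The adipocyte sum (59.1 CPM) and Myh11 (253.5 CPM) were highest of Sham there. Comp, a cartilage and tendon matrix protein of that list, had 1168, 1161 and 5143 counts in MI 2, MI 3 and MI 4 and 258 to 569 in Sham. At 55.4 CPM it made up most of the list's sum in MI 4, but was at only 10.0 CPM in MI_ART 2. Acan (aggrecan) was at 0 counts in MI 2, and Tnmd (tenomodulin) was at 0 counts in Sham 2 and MI_ART 1. In MI versus Sham 3 of the 10 were called higher and 3 lower, beside 18.8% and 14.3% of all tested genes. Sox9, a cartilage and valve transcription factor, rose 3.89-fold, and Comp and the tendon factor Scx also rose. The Wnt inhibitor Wif1 (4.96-fold), the link protein Hapln1 and Cytl1 fell. The part of these cells in the Fmod and Prelp values was not tested.

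Omd, a keratan sulfate proteoglycan first known from bone, was lower after infarction. It was at 3.37, 3.71 and 6.66 CPM in Sham 1 to 3, at 1.67, 1.06 and 1.02 CPM in MI 2, MI 3 and MI 4, and at 1.62, 1.58 and 1.10 CPM in MI_ART 1 to 3. These levels rest on 183 to 348 counts per library in Sham and 89 to 147 in the infarcted libraries, and every infarcted library was below every Sham library. Omd fell 3.66-fold in MI (log2 -1.87, SE 0.37, adjusted p = 0.00367), and was also called lower with total counts (log2 -1.002, adjusted p = 0.0293).

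Ogn, a class III member that shapes collagen fibrils in the ventricle and cornea, was at 192, 203 and 256 CPM in Sham 1 to 3. In MI 2, MI 3 and MI 4 it was at 134, 124 and 73.3 CPM, and in MI_ART 1 to 3 at 114, 139 and 143 CPM. All infarcted libraries were below Sham, and MI 4 was the lowest. With TMM Ogn fell 1.97-fold in MI (log2 -0.98, SE 0.24, adjusted p = 0.0112), while with total counts it did not pass (log2 -0.12, adjusted p = 0.658).

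Podn, a class V member that restrains smooth muscle cell growth, varied more within groups than between them. It was at 57.5, 28.8 and 27.1 CPM in Sham 1 to 3, at 41.4, 24.9 and 25.0 CPM in MI 2, MI 3 and MI 4, and at 22.8, 76.1 and 12.1 CPM in MI_ART 1 to 3. The highest MI_ART library exceeded the lowest 6.30-fold, and the SD of that group was 92.7% of its mean. Myl7 in the same MI_ART libraries was at 173, 803 and 1.96 CPM, in the same order as Podn. In Sham (821, 167 and 576 CPM) and in MI (453, 346 and 989 CPM) its order differed from that of Podn. Podn did not pass in any comparison, and its sign in MI versus Sham (log2 -0.31, SE 0.59, adjusted p = 0.718) turned to 0.51 with total counts.

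**Figure D2:**
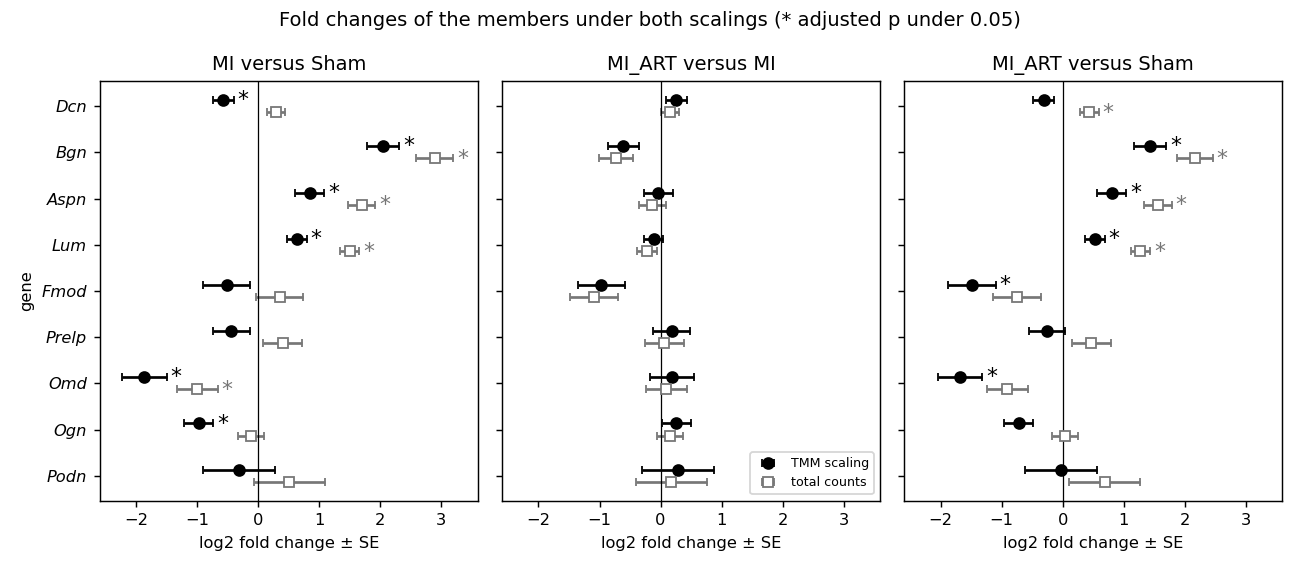
Log2 fold change of each member with its standard error in the 3 comparisons, with TMM (filled circles) and with total counts (open squares), where stars mark an adjusted p under 0.05. Bgn, Aspn and Lum are right of 0 under both scalings in MI versus Sham and MI_ART versus Sham. Dcn, Prelp and Podn lie on opposite sides of 0 in both comparisons, as do Fmod in MI versus Sham and Ogn in MI_ART versus Sham. No member has a star in MI_ART versus MI.

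Because a ratio of counts within a library does not depend on the scaling, 9 pairs of members were also compared by library. Transcript lengths were not used, so a ratio is read only as a change between groups. Bgn reads per Dcn read were 0.375, 0.442 and 0.264 in Sham 1 to 3. It stood at 1.44, 1.90 and 3.18 for MI 2, MI 3 and MI 4, and at 1.31, 1.078 and 1.19 for MI_ART 1 to 3. Every infarcted library lay above every Sham library, and MI_ART lay wholly below MI. The mean log2 ratio was 2.55 higher in MI than in Sham (5.84-fold, n = 3 each, two-sided exact permutation p = 0.1, the smallest that 3 against 3 can give). Leaving out 1 library moved that difference between 2.23 (without MI 4) and 2.80.

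In every infarcted library Aspn and Lum took more reads per Dcn read than in any Sham library, and Fmod fewer per Lum read. Aspn per Dcn was 0.0582 to 0.0628 in Sham, 0.106 to 0.195 in MI and 0.104 to 0.151 in MI_ART. Lum per Dcn was 0.160 to 0.170 in Sham, 0.348 to 0.430 in MI and 0.284 to 0.318 in MI_ART. Fmod per Lum was 0.0993 to 0.109 in Sham, 0.0324 to 0.0705 in MI and 0.0182 to 0.0301 in MI_ART. MI_ART lay wholly below MI for Lum per Dcn and for Fmod per Lum, and overlapped with MI for Aspn per Dcn.

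With the 6 infarcted libraries (MI and MI_ART) set against the 3 Sham libraries, a grouping added after the data were seen, 7 of the 9 ratios did not overlap and reached the smallest possible two-sided exact permutation p of 0.0238 (0.0306 after Benjamini-Hochberg adjustment over the 9 pairs). They were Bgn to Dcn (log2 difference 2.15), Aspn to Ogn (1.67), Aspn to Dcn (1.25), Lum to Dcn (1.02), Omd to Ogn (-0.87), Prelp to Lum (-0.98) and Fmod to Lum (-1.69). Fmod to Prelp (-0.70, exact permutation p = 0.143, adjusted 0.161) and Podn to Dcn (0.12, exact permutation p = 0.833) overlapped. Fmod to Prelp was 0.180, 0.219 and 0.256 in MI, inside or near the Sham range of 0.191 to 0.287, and 0.0794, 0.0976 and 0.130 in MI_ART, below every other library (log2 difference from MI -1.11, exact permutation p = 0.1). Bgn to Dcn, Lum to Dcn and Fmod to Lum were likewise lower in every MI_ART library than in every MI library (exact permutation p = 0.1 each, adjusted 0.225). The pairs share members and are not independent. How many pairs of other genes do not overlap was not computed, so these counts are not read as particular to the family. Of single genes 48.9% did not overlap in MI versus Sham and 13.9% in MI_ART versus MI.

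**Figure D3:**
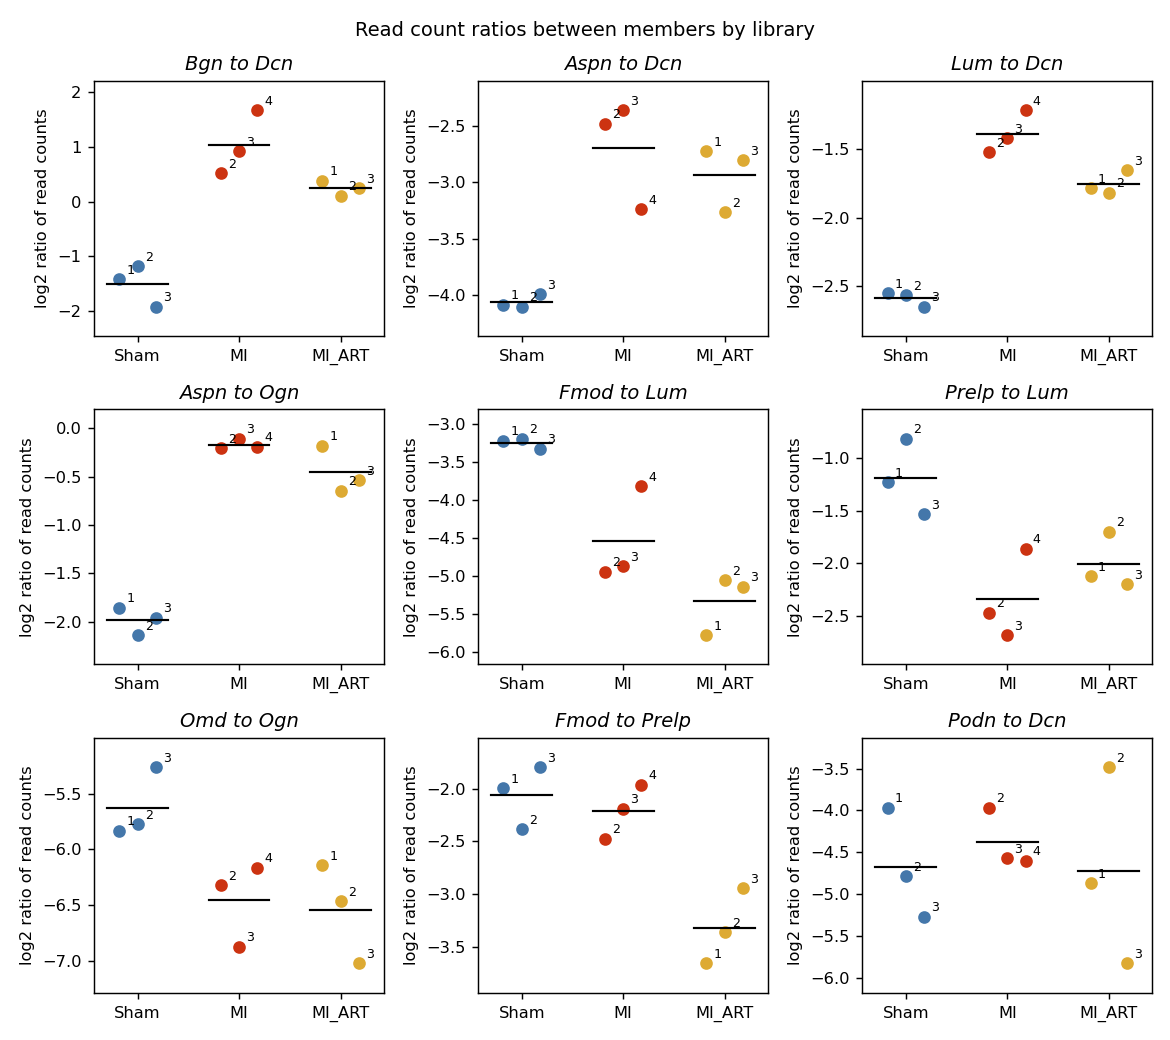
Log2 ratio of read counts for the 9 member pairs in every library, with group means as lines and library numbers beside the points. Axes do not start at 0 because the ratios are on a log scale. Bgn to Dcn is higher in all 6 infarcted libraries than in any Sham library, and Fmod to Prelp is lowest in MI_ART.

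Summed over the family, Sham libraries gave 0.123% ± 0.00351 of their counts to the 9 genes, MI libraries 0.310% ± 0.0713 and MI_ART libraries 0.249% ± 0.0224 (SD, n = 3 each). This share is of total counts, in which the mitochondrial share was lower after infarction. On the TMM scale the sum was 1784 ± 134 CPM in Sham, 2477 ± 496 CPM in MI and 2150 ± 219 CPM in MI_ART. MI 4 was the highest on both scales, at 0.391% and 3048 CPM. Within that sum the share of Bgn went from 18.2% ± 3.48 of member reads in Sham to 52.2% ± 10.1 in MI and 40.6% ± 2.45 in MI_ART. The share of Dcn went from 51.1% ± 3.25 to 25.5% ± 5.21 and 34.1% ± 1.28, and that of Ogn from 12.1% ± 1.28 to 4.73% ± 2.04 and 6.16% ± 0.764. The Bgn, Dcn and Fmod shares did not overlap between any of the 3 groups (two-sided exact permutation p = 0.1 for each pair). For Bgn the gap between MI_ART and MI was narrow, with 43.16% in MI_ART 1 and 43.42% in MI 2. All shares are parts of the same sum, so a larger Bgn share leaves less for the other members. The changes in share are therefore not separate results. The share of Lum stayed between 8.11% and 10.8% in all 9 libraries.

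**Figure D4:**
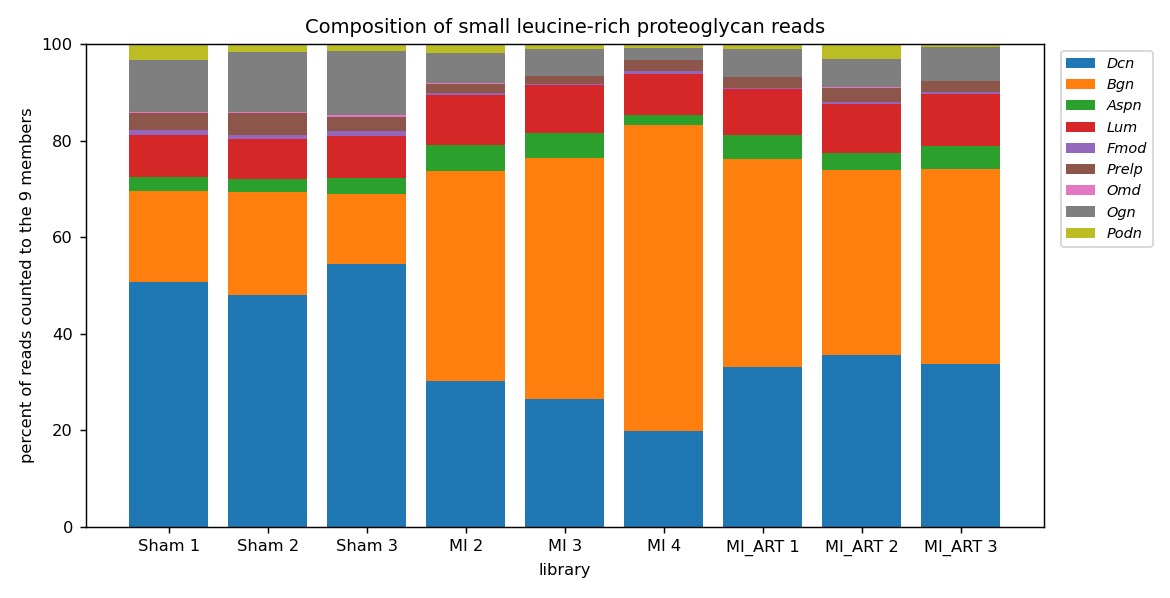
Share of each member in the reads counted to the 9 members, as stacked bars that sum to 100% in each library. A longer mRNA yields more reads, so segment heights compare libraries and not genes. In all 6 infarcted libraries the Dcn segment is shorter and the Bgn segment taller than in any Sham library.

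Several members are neighbours in the genome. Coordinates are those of RefSeq on GRCm38.p6. On chromosome 13, Aspn (49544443 to 49567565), Omd (49582462 to 49592612) and Ogn (49608015 to 49624501) follow each other with gaps of 14.9 and 15.4 kb, next to Ecm2 (49504810 to 49532789), a related matrix gene. In MI Aspn rose while Omd, Ogn and Ecm2 fell, Ecm2 2.50-fold (log2 -1.32, adjusted p = 0.000753, and -0.49 with total counts). Aspn reads per Ogn read were 0.227 to 0.276 in Sham, 0.868, 0.927 and 0.875 in MI and 0.640 to 0.884 in MI_ART, so the difference within this cluster was 3.52-fold in MI and varied little between MI libraries. On chromosome 10, Dcn (97479500 to 97518163) and Lum (97565501 to 97572703) lie 47.3 kb apart, and Lum rose while Dcn fell with TMM. Beyond Lum lie Kera (keratocan), with 13, 30 and 28 counts over the Sham, MI and MI_ART libraries, and Epyc (epiphycan), which did not pass (log2 0.34, adjusted p = 0.674) and had 514 counts in MI 4 against 92 to 248 in the other infarcted libraries.

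On chromosome 1, Prelp (133910304 to 133930102) lies between Optc (opticin), 0.616 kb away, and Fmod (134037254 to 134048280), 107 kb away. Optc had 26, 196 and 4 counts in Sham 1 to 3. It had 4 counts in MI 2, 11 in MI 3 and 102 in MI 4, had 14, 201 and 38 in MI_ART 1 to 3, and did not pass (adjusted p = 0.385). Bgn (chromosome X, 73483601 to 73495936) and Podn (chromosome 4, 108014793 to 108031954) have no other member beside them. The protein-coding gene before Bgn, Haus7, a subunit of a mitotic spindle complex, rose in MI (log2 1.45, adjusted p = 0.00193). Atp2b3, after Bgn, had 8, 34 and 0 counts over the Sham, MI and MI_ART libraries. Btg2 rose beside Fmod (log2 1.30, adjusted p = 0.000524) and Scp2 fell beside Podn (log2 -1.11, adjusted p = 0.00209), although neither member was called. Nol8 fell beside Ogn (log2 -0.91, adjusted p = 0.0413). Of all tested genes 33.1% were called in either direction, so these calls are not read as local.

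With artesunate after infarction, none of the 9 members passed the test against vehicle. Over all tested genes 2 passed, 0.0103%, both lower. At an unadjusted p under 0.05 stood 2 members, Fmod and Bgn, both lower, beside 6.96% of all tested genes. DESeq2 and limma-voom also called none of the 9, with 2 and 1 members at an unadjusted p under 0.05. Fmod was at 3.53, 7.27 and 6.17 CPM in MI_ART 1 to 3, all below the 3 MI libraries (log2 -0.97, SE 0.38, adjusted p = 0.709). Without MI 4 that difference was -0.39. Bgn was 872, 920 and 816 CPM in MI_ART, also below every MI library (log2 -0.61, SE 0.26, adjusted p = 0.709), and without MI 4 its difference was -0.24.

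The remaining members lay closer to their MI values. Dcn was higher in every MI_ART library than in every MI library (log2 0.26, SE 0.17, adjusted p = 0.762). Lum (log2 -0.11, SE 0.16), Aspn (-0.04, SE 0.24), Ogn (0.26, SE 0.24), Prelp (0.18, SE 0.30), Omd (0.19, SE 0.36) and Podn (0.28, SE 0.59) overlapped between the groups. These standard errors leave room for differences in either direction. The non-overlap of 1 higher and 2 lower members stands beside 7.38% of all tested genes higher and 6.52% lower (13.9% in all). Bgn to Dcn was 0.79 lower on the log2 scale in MI_ART than in MI, and 0.48 lower without MI 4.

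Against Sham, 3 members were higher in MI_ART and 2 lower. Bgn was 2.70-fold higher (log2 1.43, SE 0.26, adjusted p = 0.00449), Aspn 1.75-fold (adjusted p = 0.0411) and Lum 1.44-fold (adjusted p = 0.0461), and Omd was 3.20-fold lower (log2 -1.68, SE 0.36, adjusted p = 0.0106) and Fmod 2.80-fold lower (log2 -1.49, SE 0.39, adjusted p = 0.0237). The 3 higher and 2 lower members stand beside 12.9% of all tested genes called higher and 7.4% called lower (20.3% in all). Libraries did not overlap for 3 higher and 3 lower members, beside 25.4% and 22.8% of all tested genes (48.2% in all). These comparisons share the Sham libraries with MI versus Sham, and so are not a second test of the same direction. Ogn was lower in every MI_ART library than in every Sham library but did not pass (log2 -0.72, SE 0.24, adjusted p = 0.0590), and Dcn did not pass (log2 -0.31, adjusted p = 0.233). Prelp (log2 -0.26, SE 0.30) and Podn (log2 -0.03, SE 0.59) overlapped with Sham.

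The Bgn and Omd calls held with each of the 9 libraries left out in turn, and the other calls of MI_ART versus Sham did not. Lum kept its call in 1 of these 9 fits (without MI 4) and Aspn in 2, with adjusted p up to 0.154 and 0.140. Fmod kept its call in 4, with adjusted p up to 0.0930. Ogn was called lower without MI 4 (adjusted p = 0.00557), with DESeq2 (adjusted p = 0.0250) and in a fit of the 2 groups alone (adjusted p = 0.0105). With total counts 4 members were called higher and none lower: Bgn, Aspn, Lum and Dcn, for which the sign turned (log2 0.44, adjusted p = 0.0405), beside 41.6% of all tested genes called higher and 0.642% lower. Omd then missed the threshold (log2 -0.91, adjusted p = 0.0516).

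The list of 10 further genes of the family or close to it held 2 that rose and 2 that fell after infarction. Of all tested genes 18.8% were called higher and 14.3% lower, so these counts are near that share. Podnl1, a podocan relative, had no counts in Sham and 11, 28 and 63 counts in MI 2, MI 3 and MI 4, at least 6.42-fold higher over a floor of 3 counts per Sham library. Tsku (tsukushi) rose 5.85-fold to 16.4 CPM (adjusted p = 0.00588), with 1260, 1193 and 2035 counts in MI and 555, 98 and 485 in MI_ART. Nepn (nephrocan) fell 4.75-fold (adjusted p = 0.00155), and Ecm2 fell as given above. Tsku was chosen for naming after its values were seen. Against MI none of the 10 passed in MI_ART. At an unadjusted p under 0.05 stood 2, Tsku (log2 -1.80, adjusted p = 0.656) and Ecm2, beside 6.96% of all tested genes.

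Genes that build the sugar chains of these proteins were mostly higher in MI. Of 22 measured genes for chondroitin and dermatan sulfate synthesis 13 rose and 1 fell, with a median log2 fold change of 0.88 (1.72 with total counts, where 20 were higher and none lower). Of all tested genes 18.8% were called higher and 14.3% lower with TMM, and 49.3% and 3.33% with total counts. Chst11, a chondroitin sulfotransferase, rose 3.31-fold (adjusted p = 0.000190). Dse, the epimerase that turns chondroitin into dermatan sulfate, rose 3.13-fold (adjusted p = 0.000438), and Xylt1, which starts the chain by adding xylose to the core protein, rose 3.18-fold (adjusted p = 0.000705). The 1 lower gene, Fam20b, phosphorylates that xylose (log2 -0.74, adjusted p = 0.00384, and 0.11 with total counts). Of 11 genes for keratan sulfate and N-glycan extension 5 rose and none fell, among them B4galt1 (1.96-fold), B3gnt7 (4.89-fold) and the keratan sulfate sulfotransferase Chst1 (3.52-fold). In MI_ART versus MI no gene of these lists was called.

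Most collagens and proteases that act with the members rose, where 18.8% of all tested genes were called higher and 14.3% lower. Of 15 collagen, elastic fibre and crosslinking genes 13 rose, with a median log2 fold change of 3.30, against -0.44 for the 9 proteoglycans. Lox, Col12a1 and Col5a2 had the smallest p-values among them. Of 16 proteases and enhancers that cut the family or its neighbours in matrix, 10 rose and none fell (median 1.95), among them Mmp14 (8.10-fold), Mmp12 (34.9-fold) and Ctss (13.7-fold). Bmp1, the procollagen C-proteinase that also removes the biglycan propeptide, rose 4.36-fold (adjusted p = 0.000394) and was named after its values were seen. Of 22 signalling partners 16 rose and 3 fell: Ccn2, Cd14 and Cd44 rose 4.78-fold, 7.57-fold and 5.75-fold, and Tlr2 and Tlr4, the receptors of soluble biglycan, rose 4.19-fold and 1.69-fold (adjusted p = 0.000557 and 0.0447) and were chosen after their values were seen. The 3 lower genes were Lrp6, Erbb4 and Kdr, of which none passed with total counts.

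Of 23 measured proteoglycans and link proteins outside the family 9 rose and 1 fell in MI, with a median of 1.00. These stand beside 18.8% of all tested genes called higher and 14.3% lower. The syndecans Sdc1 and Sdc3 rose 4.45-fold and 3.84-fold, Vcan (versican) rose 4.26-fold, and the link protein Hapln1 fell. In MI_ART versus MI no collagen partner, protease, signalling partner or other proteoglycan was called.

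Markers of cells that could supply the family's mRNA were counted in the same libraries. Their calls in MI versus Sham stand beside 18.8% of all tested genes called higher and 14.3% lower. Of 10 fibroblast markers 4 rose and 1 fell in MI: Col15a1 and Mfap5 rose 3.32-fold and 5.07-fold, and Gsn (gelsolin, also made by other cells) fell from 1940 to 554 CPM. The summed level of the list was 2525 to 2764 CPM in Sham, 1389 to 1985 CPM in MI and 1623 to 2380 CPM in MI_ART. Without Gsn, which made up most of the Sham sum, the other 9 markers summed to 653 to 699 CPM in Sham, 978 to 1248 CPM in MI and 867 to 1152 CPM in MI_ART, so the direction turned (a sum added after the data were seen). Pdgfra, a fibroblast surface receptor named after its values were seen, did not pass (log2 0.21, SE 0.18, adjusted p = 0.414, and 1.05 with total counts, adjusted p = 0.00109). Of 8 myofibroblast markers 7 rose, led by Cthrc1, Tnc and Fn1, and the sum of the 8 was 277 to 786 CPM in Sham, 2636 to 3149 CPM in MI and 2074 to 2246 CPM in MI_ART. Acta2 of this list overlapped, at 220.6, 576 and 102.5 CPM in Sham 1 to 3 and 206.1, 339.7 and 789.3 CPM in MI 2, MI 3 and MI 4. It made up most of the sum in Sham 1 and Sham 2. Of 6 macrophage markers all 6 rose, with sums of 298 to 469 CPM in Sham, 2358 to 2576 CPM in MI and 1588 to 3061 CPM in MI_ART. Epicardial and mesothelial markers summed to 63.2 to 97.8 CPM in Sham, 106 to 231 CPM in MI with MI 4 the highest, and 37.2 to 130 CPM in MI_ART. Of the other cell markers, 3 of 5 ventricular, 2 of 5 endothelial and 1 of 5 smooth muscle and pericyte genes fell. Of 4 skeletal muscle genes 1 rose and 1 fell, and none of 6 atrial or 4 adipocyte genes passed. In the skeletal muscle list Ckm was at 2247 to 2373 CPM in Sham and 414 to 658 CPM in MI. Mylpf of that list, named after its values were seen, was at only 0.497 to 1.015 CPM in Sham. The fall in this list is therefore not read as one of skeletal muscle. In MI_ART versus MI 1 marker passed, the skeletal muscle troponin gene Tnnt3, which was lower (log2 -4.18, adjusted p = 0.0446, and 0.0576 with total counts). The part of these cells in the members' values was not tested.

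As a description of shape, each member was set beside the 14966 other protein-coding genes by Pearson's r of log2 CPM over the 9 libraries. The groups differ, so a high r reflects in part the step from Sham to the infarcted libraries. Nearest to Bgn were Mrc2, a collagen uptake receptor (r = 0.998), Oaf (0.995) and Crtap, a collagen prolyl hydroxylation partner (0.994). Nearest to Lum were Pycr1, an enzyme of proline synthesis (0.974), and the cartilage intermediate layer protein gene Cilp (0.973), and nearest to Ogn Sccpdh (0.993) and Asb8 (0.993). Dcn was nearest to Suox (0.954) and the sodium channel gene Scn7a (0.952), Aspn to Slc25a30 (0.982), Omd to Gabarapl2 (0.981) and Prelp to Fuz (0.979) and Gdf10 (0.969). Fmod was nearest to Mrpl12 (0.980) and Mrps24 (0.972), both of the mitochondrial ribosome. Podn was nearest to Sort1 (0.953), Muc16, a mesothelial mucin (0.927), and Tbx5, an atrial and left ventricular transcription factor (0.912).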

How the data were processed

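The authors deposited raw read counts per Ensembl gene for 9 libraries, in 1 table and 9 single-library files that equalled it at a tolerance of 0. The submitters' processing notes list featureCounts 1.5.0-p3, DESeq 1.8.3, GRCm38 and HISAT without a version. For strand and for reads with several matches, the setting was not given in the sources used here. Counts were filtered with filterByExpr, scaled by TMM and fitted in edgeR 4.0.16 (R 4.3.3) with all 9 libraries and 1 mean per group (common dispersion 0.150). Quasi-likelihood F tests gave p-values, adjusted by Benjamini-Hochberg over 19326 genes. The SE of a log2 fold change is its size over the square root of F. Alternatives used other scalings, no filter, DESeq2 1.42.0, limma-voom 3.58.1, 2 groups only, a replicate block and libraries left out.

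Two-sided exact permutation tests compared ratios and shares of member counts. Shares were planned per transcript length, but no transcript lengths were at hand, so shares of counts were used. Named genes are all 9 members, the 3 genes with the smallest p in MI versus Sham from each list, genes of the lists that passed in MI_ART versus MI, the nearest genes by Pearson's r and genomic neighbours. Comp, Scx, Cytl1, Acan, Tnmd, Bmp10, Myl4, Sln, Nppa, Myh11 and Acta2 were also named after their values were seen. So were the few lower genes of a list, and others where said. Members and lists were chosen with earlier results of these data known. Promoter and protein sequences were not analysed here. Symbols of 17675 tested genes (91.5%) matched the RefSeq table. The 3-count floor covers counting error only.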

Additional observations from a re-analysis of the deposited data

How the results depend on the processing

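With total counts the sign turned in MI versus Sham for Dcn (0.28), Fmod (0.35), Prelp (0.40) and Podn (0.51), and in MI_ART versus Sham for Dcn (0.44), Ogn (0.033), Prelp (0.47) and Podn (0.69). With library sizes outside the mitochondrial genome it turned for Prelp (0.0201) and Podn (0.24) in MI_ART versus Sham. RLE and upper-quartile factors gave the same counts of members called as TMM. In MI versus Sham 4 to 8 members were called over the alternatives, against 6. In MI_ART versus Sham 2 to 6 were called over the 9 libraries left out in turn, against 5, and 3 without the filter on low counts. None was called in MI_ART versus MI under any alternative run. All genes called ranged from 4805 to 10171 in MI versus Sham (6398), 0 to 93 in MI_ART versus MI (2, and 93 with DESeq2) and 2051 to 8156 in MI_ART versus Sham (3919), the highest of the first and last with total counts. Of the calls in MI versus Sham 56.7% were higher with TMM, 93.7% with total counts and 73.7% outside the mitochondrial genome.

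Signs of values near 0 also turned elsewhere. In MI_ART versus MI, limma-voom gave Aspn 0.0125 and Podn -0.10, and without MI 4 and MI_ART 3 together Ogn was -0.029. In MI_ART versus Sham Podn was 0.0034 without the filter and 0.39 without MI 4 and MI_ART 3 together. With single libraries left out Podn ranged from -0.60 to 0.12 in MI versus Sham, -0.80 to 0.70 in MI_ART versus MI and -1.08 to 0.41 in MI_ART versus Sham, and in MI_ART versus MI Aspn ranged from -0.27 to 0.10 and Prelp from -0.0896 to 0.56. The log2 ratio of Omd to Ogn ranged from -0.30 to 0.15 in MI_ART versus MI, and that of Podn to Dcn from -0.0019 to 0.65 in MI versus Sham, -0.97 to 0.20 in MI_ART versus MI, -0.67 to 0.50 in MI_ART versus Sham and -0.18 to 0.47 for all infarcted libraries.

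Deviations of same-numbered libraries correlated at 0.0156, -0.0016 and 0.103 between MI_ART and Sham. They correlated at -0.0176 and 0.213 between MI and Sham, and at 0.0161 and 0.124 between MI_ART and MI. Different-numbered libraries correlated at -0.144 to 0.115, -0.226 to 0.154 and -0.17 to 0.0952 in the same order. The number 3 pairs were thus the highest in the last 2 comparisons. No label says that the numbers mark a shared animal or batch, so they were not taken to pair samples. With the replicate block 7 members were called in MI versus Sham, none in MI_ART versus MI (Podn -0.17) and 6 in MI_ART versus Sham, and all genes called in the latter were 5927. The block called Fmod (adjusted p = 0.0203) and Prelp (0.00794) lower in MI versus Sham and Ogn (0.00594) lower in MI_ART versus Sham, and ended the Dcn call in MI versus Sham (0.0548). Since only MI 4 has the number 4, the block leaves MI 4 without weight in these differences. Omd rests on the fewest counts of the 9, down to 89 in a library. Shares per transcript length were not run.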
